A study of Mus musculus with 2 samples.

Results

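The 7 genes of the colony-stimulating factor family described here were followed by symbol among the 32285 genes of 2 single-nucleus RNA libraries from injured mouse tibia: the ligands Csf1 and Il34 and the receptor genes Csf1r, Csf2ra, Csf2rb, Csf2rb2 and Csf3r. All 7 were found by symbol in either library, and each had UMIs (unique molecular identifiers, counted as RNA molecules) in it. The nuclei came from C57BL6 mice, from scraped activated periosteum collected with the hematoma or callus. The day 1 post-fracture library was taken 1 day after a tibial fracture, and the day 5 post-MTI library 5 days after musculoskeletal traumatic injury, in which the muscles around the fractured tibia were also compressed. Each library held nuclei pooled from 3 or 4 mice with no genotype other than C57BL6 in the labels, and was the only library of its condition. Day and injury therefore cannot be told apart, no test between the libraries was possible, and each was described on its own.

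CSF1 and IL-34 are secreted ligands that share the receptor tyrosine kinase CSF1R, on which most tissue macrophages, and osteoclasts, depend for survival and differentiation. GM-CSF signals through a private alpha chain, encoded by Csf2ra, and a beta chain, encoded by Csf2rb, that is shared with the IL-3 and IL-5 receptors. Mice carry an additional beta chain gene, Csf2rb2, whose product serves the IL-3 receptor. CSF3R is the receptor of G-CSF, the main growth factor of neutrophils. Neither cytokine receptor has kinase activity of its own, so Janus kinases and Src family kinases carry its signal.

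The mm10 mouse genome of the files is GRCm38. Csf1 lies at chr3:107741048-107760469 on the minus strand, Il34 at chr8:110741829-110805924 on the minus strand, and Csf2ra at chr19:61223957-61228429 on the minus strand. Csf2rb (chr15:78325752-78353847, plus strand) and Csf2rb2 (chr15:78282507-78305721, minus strand) are neighbours, and Csf3r is at chr4:126024550-126044440 on the plus strand. Exonic and intronic reads were counted, so a UMI can lie anywhere in these spans. Il34 overlaps the antisense genes Gm15894 and Gm15895. The transcripts of Csf2rb and Csf2rb2 share 387 words of 91 bases, the length of the sequenced read, which is 5.36% of the words of Csf2rb and 7.92% of those of Csf2rb2. The counts of both genes are therefore uncertain for reads from the shared stretches. Introns, whose reads were also counted, were not compared.

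RefSeq start-site windows of 250 bases before to 50 after the start (GRCm38.p6) were at hand for Csf1, Csf2ra, Csf2rb2 and Csf3r. The purine-rich core GAGGAA, the sequence that the myeloid factor PU.1 (gene Spi1) is known to bind, was present on either strand (TTCCTC on the other strand) in the windows of the 3 receptor genes and not in that of Csf1. It was also present in 9289 of all 32851 windows (28.3%), and it was 1 of 5 motifs looked at, so these matches describe the windows and nothing more. A stretch of 30 bases is shown for each receptor gene, read 5′ to 3′ on the gene's strand with 1 site in capitals. Csf2ra has another site 8 bases before the start, in lower case within its stretch, and Csf2rb2 another at 30 after it, outside its stretch. The site shown starts 86 bases before the start site in Csf3r (chr4:126024561-126024590, plus strand), 14 before it in Csf2ra (chr19:61228415-61228444, minus strand) and 167 before it in Csf2rb2 (chr15:78305871-78305900, minus strand).
Csf3r: cctccttcctgaGAGGAAggggctgtctat
Csf2ra: caacctgcagatGAGGAAgaggaagcggga
Csf2rb2: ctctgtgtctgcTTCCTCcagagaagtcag

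The day 5 post-MTI library held 1446 barcodes with 500 to 45740 UMIs (median 2246), of which 1127 nuclei with 4337337 UMIs were retained. The day 1 library held 48987 barcodes with a median of 157 UMIs, of which 2405 nuclei (median 409 UMIs) were retained, and 33 barcode sequences occurred in both libraries. Nuclei were clustered without the 7 genes or the genes of their pathway, and populations were named from marker lists. At day 5 post-MTI these were 274 macrophage-like, 75 monocyte-like, 85 neutrophil-like, 33 osteoclast-like, 176 skeletal lineage-like, 36 endothelial-like, 32 erythroid-like and 127 myogenic-like nuclei, with 49 nuclei of an immune cluster carrying lymphoid and dendritic markers. A further 179 nuclei led by Clic6 and 61 led by Hspa1a stayed without a name. Levels are UMIs of a gene per 1000000 UMIs of the population (CPM), with exact 95% Poisson intervals in parentheses. All 8 osteoclast markers (7526 CPM) and all 10 neutrophil markers (6511 CPM) were detected in their populations. The names came from these same marker lists, so such levels describe the populations and do not test the names. The erythroid-like nuclei held 2396 CPM of macrophage markers against 663 of erythroid ones. The monocyte-like nuclei held all 10 macrophage markers (1523 CPM) beside monocyte markers at 2291 CPM, with no Ly6c2 UMI. Macrophage and monocyte levels are thus compared between groups that share markers. All intervals cover counting error only, since PCR and the single library add error they do not include. Fewer RNA molecules per nucleus and fewer expressing nuclei cannot be told apart in a summed level.

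**Figure D1:**
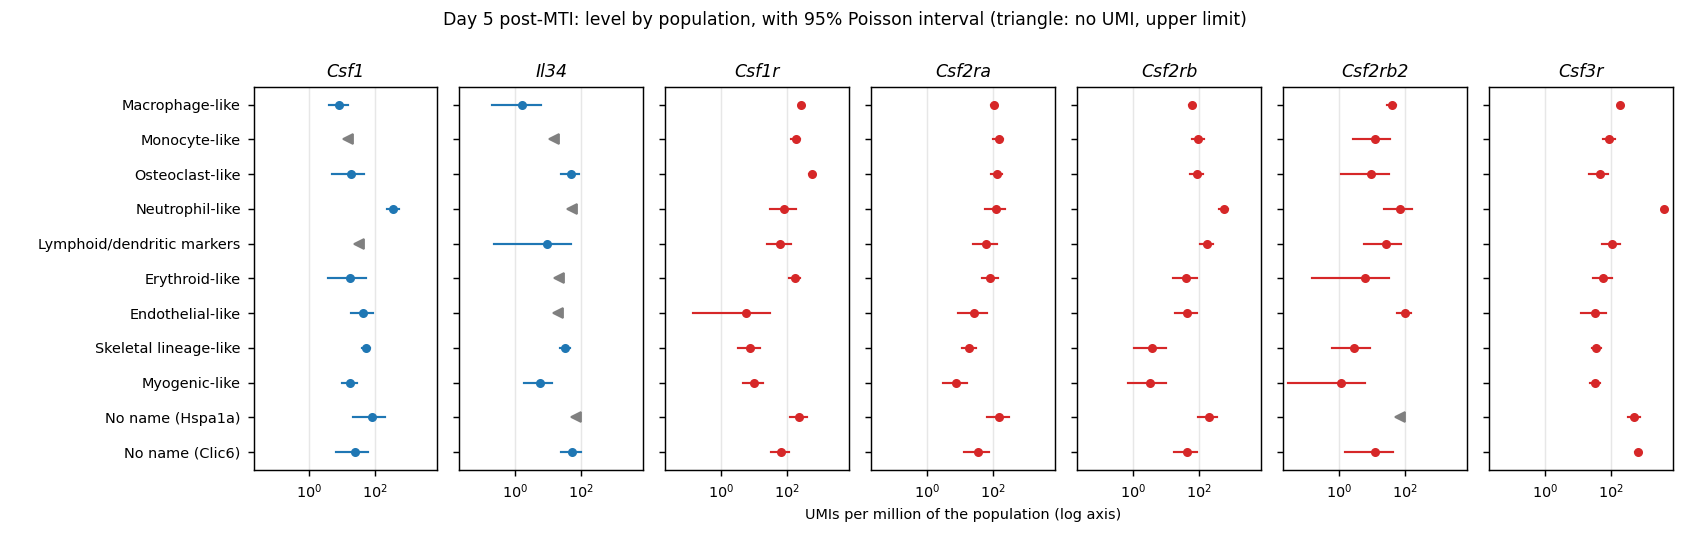
Level of each of the 7 genes (CPM, log axis) in the 11 populations of the day 5 post-MTI library, as points with 95% Poisson intervals; triangles mark the upper limit where no UMI was counted. Csf3r in neutrophil-like nuclei (4144) and Csf1r in osteoclast-like nuclei (575) were the top levels of their genes.

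The ligand Csf1 was highest in neutrophil-like nuclei and next, among named populations, in skeletal lineage-like nuclei, and it was low in macrophage-like nuclei. Neutrophil-like nuclei held 26 Csf1 UMIs, 366 CPM (239 to 537), in 16 of 85 nuclei. Skeletal lineage-like nuclei held 56 UMIs, 54.6 CPM (41.2 to 70.8), in 41 of 176 nuclei. Macrophage-like nuclei held 10 UMIs, 8.25 CPM (3.96 to 15.2), and no UMI was counted in the 75 monocyte-like nuclei, which allows up to 12.5 CPM. The neutrophil level was 6.72 times (4.05 to 10.9) the skeletal level and 44.4 times (20.7 to 103) the macrophage level. The skeletal level was 6.61 times (3.34 to 14.5) the macrophage level and 3.06 times (1.73 to 5.72) the myogenic level of 17.8 CPM. It was not separated from the endothelial level of 44.2 CPM (ratio 1.24, 0.585 to 3.00).

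Skeletal lineage-like nuclei, being many and deep, supplied 42.7% of all 131 Csf1 UMIs, while the neutrophil-like nuclei supplied 19.8% with 1.64% of the library's UMIs. Between the skeletal clusters, the Matn3 cluster (52.8 CPM) and the Pi15 cluster (68.1 CPM) did not differ beyond counting error (ratio 1.29, 0.527 to 2.75). At doubled resolutions, no Csf1 UMI was counted in the 13 nuclei of a cluster led by Hapln1 and Col9a1, which allows up to 21.8 CPM. The skeletal clusters led by Rspo2, Eln and Prg4 were at 52.5, 76.5 and 63.6 CPM. Among myogenic nuclei, 9 of 16 Csf1 UMIs were in the cluster led by Chodl and the satellite cell gene Pax7 (47.2 CPM), 6 of them in a single nucleus. Among macrophage-like nuclei, 9 of the 10 UMIs were in the Mmp12 cluster (24.9 CPM), in 6 nuclei. These 6 held neutrophil markers at 540 CPM and osteoclast markers at 899.7 CPM, against 41.9 and 365 CPM in the other 64, and their part in this level was not tested. The order of Csf1 levels below the neutrophils (Hspa1a cluster 79.6, skeletal 54.6, endothelial 44.2, Clic6 cluster 24.3, osteoclast 18.4, erythroid 17.9, myogenic 17.8) held no neighbours that differed beyond counting error.

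The Csf1 UMIs of the neutrophil-like nuclei were spread over them, with at most 4 in 1 nucleus, and the level without that nucleus was 314 CPM. Of the 16 nuclei with Csf1, 12 also held Csf3r, against 70 of all 85. Neutrophil markers summed to 6088 CPM in the nuclei with Csf1 and 6627 in those without it. The nuclei with Csf1 held none of the 59 Ltf, 15 Mmp8, 2 Camp and 1 Ly6g UMIs of the population and 44 of its 104 Hdc UMIs. Of the other markers they held 30 of 185 S100a9, 7 of 51 S100a8, 8 of 29 Cxcr2, 2 of 10 Trem1 and 2 of 6 Retnlg UMIs. Macrophage markers summed to 786 and 359 CPM, and skeletal markers to 655 and 772 CPM, and their part in the Csf1 level was not tested. After each nucleus was thinned to 500 UMIs, Csf1 was found in 14.1% of neutrophil-like, 5.68% of skeletal lineage-like and 0.365% of macrophage-like nuclei (18.8%, 23.3% and 2.55% before thinning, at median depths of 757, 3943 and 4024 UMIs). The order of the neutrophil and skeletal shares at equal depth was thus that of the CPM. With nuclei assigned singly from their marker counts, without clusters, the neutrophil level of Csf1 was 188 CPM (124 to 274), outside its interval above.

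The other CSF1R ligand, Il34, was sparse and was found in few nuclei. Of its 62 UMIs, 34 were in skeletal lineage-like nuclei, 33.1 CPM (22.9 to 46.3), and 11 in osteoclast-like nuclei, 50.6 CPM (25.3 to 90.6). These levels were not separated (osteoclast over skeletal 1.53, 0.699 to 3.09). The Clic6 cluster held 9 UMIs in 9 nuclei, 54.7 CPM (25.0 to 104). Macrophage-like nuclei held 2 UMIs, 1.65 CPM, and the ratio of the skeletal to the macrophage level was 20.1 (5.14 to 172). No Il34 UMI was counted in the neutrophil-like, monocyte-like, endothelial-like or erythroid-like nuclei.

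Few nuclei carried the Il34 signal. In the skeletal population 13 of 176 nuclei held it, with 10 UMIs in a single nucleus, and without that nucleus the level was 23.5 CPM. In the osteoclast population 7 of 33 nuclei held it, with 4 UMIs in a single nucleus, and without that nucleus the level was 32.7 CPM (13.1 to 67.4). That nucleus held 0 Csf1r UMIs and 5 pericyte marker UMIs. The level was 29.9 CPM with a minimum of 500 genes per nucleus and 26.2 CPM with nuclei assigned singly. The 7 osteoclast-like nuclei with Il34 held osteoclast markers at 7517 CPM, and the 26 without it at 7528 CPM. Of these 7, 5 also held Csf1r, so ligand and receptor RNA were counted in the same nuclei, against 25 of all 33 nuclei with Csf1r.

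When the clustering resolutions were doubled, 63 of the 176 skeletal lineage-like nuclei and 15 others formed a cluster of 78 nuclei led by Olfr78, Myh11, Trpc6 and Rgs5. It was pericyte-like, with all 5 pericyte markers detected (1616 CPM), beside skeletal markers at 4940 CPM. This cluster held 25 Il34 UMIs, 155 CPM (100.1 to 228), and 24 of them had been counted in the skeletal population above. The skeletal lineage-like nuclei that remained held 10 UMIs, 11.4 CPM, and the ratio of the levels was 13.6 (6.31 to 31.7). The 25 UMIs lay in 7 nuclei, with 10, 7 and 4 in the top 3 and 1 in each of the others. The top nucleus also held 9 Csf3r UMIs and 5 neutrophil marker UMIs, and without it the pericyte-like level of Il34 was 95.6 CPM (53.5 to 158). Csf1, by contrast, was 61.9 CPM in the pericyte-like cluster and 52.4 in the remaining skeletal nuclei, a ratio of 1.18 (0.532 to 2.38). The skeletal level of Il34 was 13.4 CPM with nuclei assigned singly from their marker counts and 18.4 CPM with a mitochondrial limit of 0.5%.

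**Figure D2:**
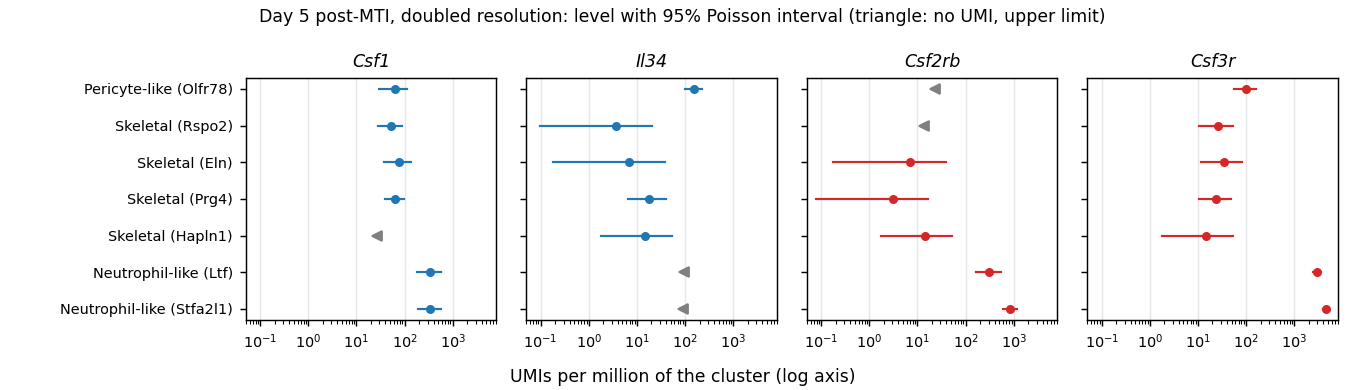
Levels of Csf1, Il34, Csf2rb and Csf3r (CPM, log axis) in named clusters after the clustering resolutions were doubled, as points with 95% Poisson intervals; triangles mark upper limits where no UMI was counted. Il34 was 155 in the pericyte-like cluster, whereas Csf3r was 3016 and 4650 in the neutrophil-like clusters led by Ltf and Stfa2l1.

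The receptor Csf1r followed the macrophage and osteoclast populations. The gene lies at chr18:61100598-61132149 on the plus strand and overlaps Hmgxb3 on the opposite strand. Osteoclast-like nuclei held 125 UMIs, 575 CPM (479 to 686), in 25 of 33 nuclei, of which 14 held at least 5 UMIs. Macrophage-like nuclei held 325 UMIs, 268 CPM (240 to 299), in 160 of 274 nuclei, and monocyte-like nuclei held 45 UMIs, 188 CPM (137 to 251). The osteoclast level was 2.15 times (1.73 to 2.64) the macrophage level, which was 1.43 times (1.04 to 2.00) the monocyte level. Skeletal lineage-like nuclei held 8 UMIs, 7.79 CPM, and the macrophage level was 34.4 times (17.3 to 80.4) as high. Myogenic-like nuclei were at 10.0 CPM and endothelial-like nuclei, with 1 UMI, at 5.52 CPM. At 500 UMIs per nucleus Csf1r was found in 27.3% of osteoclast-like and 12.8% of macrophage-like nuclei, and in 0 of 176 skeletal lineage-like and 0 of 127 myogenic-like nuclei, which allows up to 1.705% and 2.36%.

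Osteoclast-like nuclei were poor in the markers of the other Csf1r-expressing cells. Their macrophage markers summed to 207 CPM against 4281 in the macrophage-like nuclei, with C1qa, C1qb, C1qc and Cd163 at 0. The erythroid-like nuclei held 29 Csf1r UMIs, 173 CPM (116 to 249), in 15 of 32 nuclei. Those 15 nuclei held 1 of the 111 erythroid marker UMIs and macrophage markers at 2373 CPM, against 2450 CPM in the 17 nuclei without Csf1r. The part of macrophage RNA in that level was not tested. Neutrophil-like nuclei held 6 Csf1r UMIs, 84.6 CPM, in 5 nuclei.

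Within the macrophage-like nuclei, Csf1r differed between the 4 clusters. It was 422 CPM (355 to 499) in the cluster led by Dnase1l3, 325 (262 to 399) in that led by Ccl8 and Cd163, 196 (153 to 247) in that led by Mmp12 and Gpnmb, and 99.98 (64.1 to 149) in that led by Ptgr1 and Hmox1. At doubled resolutions a cluster of 41 nuclei led by Ptgr1 stayed without a name, with Csf1r at 88.4 CPM. The Dnase1l3 level was 4.23 times (2.73 to 6.82) the Ptgr1 level and 2.15 times (1.61 to 2.91) the Mmp12 level. The Dnase1l3 and Ccl8 clusters were not separated (ratio 1.30, 0.990 to 1.71). Csf1r was counted in 63 of 77 nuclei of the Dnase1l3 cluster and in 20 of 57 of the Ptgr1 cluster, at similar median depths of 4108 and 4166 UMIs. The clusters came from the same nuclei, so these ratios describe this library.

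**Figure D3:**
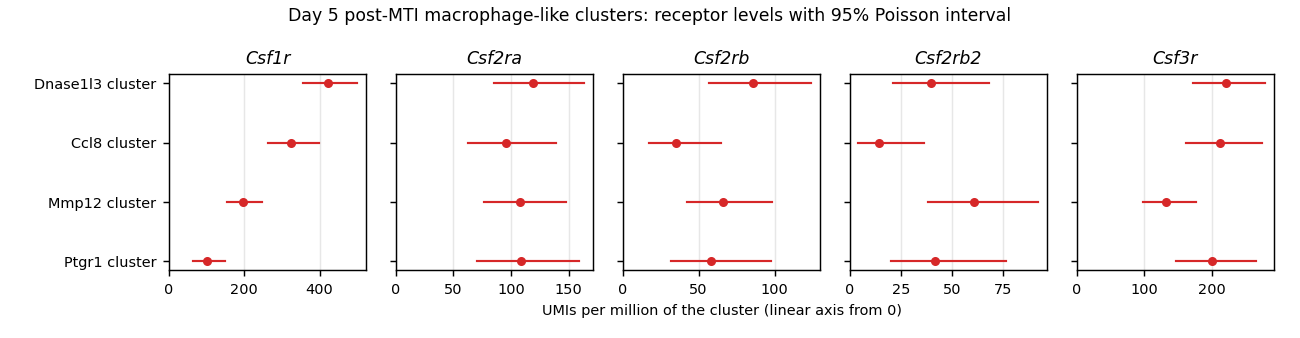
Levels of the 5 receptor genes (CPM, linear axes from 0 that differ between panels) in the 4 macrophage-like clusters of the day 5 post-MTI library, with 95% Poisson intervals. Csf1r ran from 422 in the Dnase1l3 cluster to 99.98 in the Ptgr1 cluster, while Csf2ra stayed between 95.5 and 119.

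Csf2ra, the GM-CSF receptor alpha chain, was shared across the myeloid populations. It was 150 CPM (105 to 208) in monocyte-like, 134 (89.4 to 192) in osteoclast-like, 127 (58.0 to 241) in neutrophil-like and 108 (90.4 to 128) in macrophage-like nuclei, with 36, 29, 9 and 131 UMIs. The interval of the ratio of each of the other 3 to the macrophage level held 1 (monocyte 1.39, 0.933 to 2.02). Skeletal lineage-like nuclei were at 19.5 CPM and myogenic-like nuclei at 7.79 CPM, and the macrophage level was 5.55 times (3.45 to 9.38) and 13.9 times (6.55 to 35.2) these. Across the macrophage-like clusters Csf2ra ran from 95.5 to 119 CPM, and the interval of each of the 6 pairwise ratios held 1. With resolutions doubled, a cluster of 39 nuclei led by Osm was named monocyte-like and held 18 Csf2ra UMIs, 211.8 CPM (125.5 to 334.7). Macrophage-like nuclei were at 108.7 CPM (88.18 to 132.7) under that setting, and the ratio of these levels was not computed.

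Csf2rb, the shared signalling chain, was highest in the neutrophil-like nuclei. It had 42 UMIs there, 592 CPM (427 to 800), in 32 of 85 nuclei. The neutrophil level was 9.44 times (6.31 to 13.9) that of the macrophage-like nuclei, 62.7 CPM (49.4 to 78.5). The immune cluster with lymphoid and dendritic markers was at 182 CPM (111 to 280), 2.89 times (1.67 to 4.79) the macrophage level. Monocyte-like nuclei were at 95.98 CPM (60.84 to 144). The Osm cluster, named monocyte-like with resolutions doubled, was at 223.5 CPM (134.6 to 349.1). Skeletal lineage-like and myogenic-like nuclei were at 3.90 and 3.34 CPM. After thinning, Csf2rb was found in 24.7% of neutrophil-like, 3.28% of macrophage-like and 0 of 127 myogenic-like nuclei. The neutrophil level was 377 CPM with a minimum of 500 genes per nucleus and 349 CPM with nuclei assigned singly from their marker counts. Between macrophage-like clusters, the Dnase1l3 cluster (85.7 CPM) was 2.42 times (1.14 to 5.59) the Ccl8 cluster (35.4 CPM), and the other 5 pairs were not separated.

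The alpha chain and a beta chain (Csf2rb or Csf2rb2) were counted together in 10 of 33 osteoclast-like nuclei (30.3%), 37 of 274 macrophage-like nuclei (13.5%) and 5 of 85 neutrophil-like nuclei (5.88%). They were found together in 1 of 176 skeletal lineage-like and 0 of 127 myogenic-like nuclei. Median depth was 6686 UMIs in the osteoclast-like, 4024 in the macrophage-like, 757 in the neutrophil-like, 3943 in the skeletal lineage-like and 6211 in the myogenic-like nuclei, so the myeloid shares are not ordered here. In neutrophil-like nuclei a beta chain alone was found in 29 nuclei and the alpha chain alone in 4. Because the product of Csf2rb2 serves the IL-3 receptor, these are not counts of GM-CSF receptor pairs. Csf2ra and Csf2rb themselves were counted together in 31 of 274 macrophage-like nuclei.

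Csf2rb2 was low, with 87 UMIs, and its top level, in the endothelial-like nuclei, was not separated from the neutrophil level. These held 18 UMIs, 99.4 CPM (58.9 to 157), in 9 of 36 nuclei, 2.46 times (1.35 to 4.30) the macrophage level of 40.4 CPM (49 UMIs). Neutrophil-like nuclei held 5 UMIs, 70.5 CPM, and the endothelial level was 1.41 times (0.505 to 4.86) theirs. A single nucleus held 7 of the 18, and without it the level was 65.2 CPM (32.5 to 117). The 9 nuclei with Csf2rb2 held all 9 endothelial markers (11459 CPM, against 12146 in the other 27 nuclei). They also held more of the macrophage markers (356 against 44.1 CPM) and of the skeletal markers (1602 against 507 CPM) than the other 27. The part of RNA from other cells in this level was not tested. With a mitochondrial limit of 0.5% the endothelial level was 56.5 CPM, from 6 UMIs in 21 nuclei, and with nuclei assigned singly it was 63.1 CPM. Among macrophage-like clusters Csf2rb2 was 60.8 CPM in the Mmp12 cluster and 14.1 in the Ccl8 cluster, a ratio of 4.30 (1.46 to 17.2), and 7 of the 22 UMIs of the Mmp12 cluster were in a single nucleus.

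Csf3r, the G-CSF receptor, was by far highest in the neutrophil-like nuclei. These held 294 of its 788 UMIs, 37.3% of them with 1.64% of all UMIs, at 4144 CPM (3683 to 4645). Csf3r was counted in 70 of 85 nuclei, and 23 of these held at least 5 UMIs at a median depth of only 757. Macrophage-like nuclei followed among the named populations with 228 UMIs, 188 CPM (165 to 214), in 119 of 274 nuclei, and the neutrophil level was 22.0 times (18.5 to 26.3) theirs. The macrophage level was itself 5.45 times (3.74 to 8.21) the myogenic level of 34.5 CPM and 5.08 times (3.59 to 7.37) the skeletal level of 37.0 CPM. At 500 UMIs per nucleus Csf3r was found in 74.1% of neutrophil-like, 8.39% of macrophage-like, 3.15% of myogenic-like and 2.27% of skeletal lineage-like nuclei. The myogenic-like and skeletal lineage-like nuclei lie outside the blood lineages. Of the 38 skeletal UMIs, 9 were in a single nucleus that also held 5 neutrophil marker UMIs. The part of RNA from other cells in the macrophage, myogenic and skeletal levels was not tested. With nuclei assigned singly from their marker counts the neutrophil level was 2105 CPM (1874 to 2356). Neutrophil markers summed to 66.0 CPM in macrophage-like nuclei and 39.0 in skeletal lineage-like nuclei, against 6511 in the neutrophil-like nuclei.

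The unnamed Clic6 cluster held 111 Csf3r UMIs, 675 CPM (555 to 813), in 31 of 179 nuclei, 10 of them with at least 5 UMIs. The 31 nuclei held neutrophil markers at 1710 CPM, and the 148 without Csf3r at 285 CPM. Macrophage markers summed to 963 and 252 CPM in these nuclei, and the part of neutrophil and macrophage RNA was not tested. The Hspa1a cluster was at 518 CPM (338 to 758). Within the macrophage-like nuclei Csf3r was lower in the Mmp12 cluster (133 CPM) than in the Dnase1l3 cluster (220 CPM, ratio 1.66, 1.14 to 2.45) and the Ccl8 cluster (212 CPM, ratio 1.60, 1.08 to 2.39).

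At doubled resolutions 91 nuclei, in place of 85, were neutrophil-like, in a cluster of 47 led by Ltf and a cluster of 44 led by Stfa2l1. Ltf, the secondary granule protein lactoferrin, had 61 UMIs in the former and 1 in the latter, and Hdc, histidine decarboxylase, had 17 and 97. Csf3r was 3016 CPM (2492 to 3617) in the Ltf cluster and 4650 (4014 to 5359) in the Stfa2l1 cluster, a ratio of 0.649 (0.510 to 0.821). Csf2rb was 312 and 852 CPM, a ratio of 0.366 (0.173 to 0.722). Csf1 was 338 and 341 CPM, a ratio of 0.992 (0.429 to 2.28). The difference between these ratios was not tested. Csf1 was counted in 8 nuclei of the Ltf cluster and 9 of the Stfa2l1 cluster. It was thus found in both clusters, although no Ltf UMI was counted in the neutrophil-like nuclei with Csf1 described above.

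**Figure D4:**
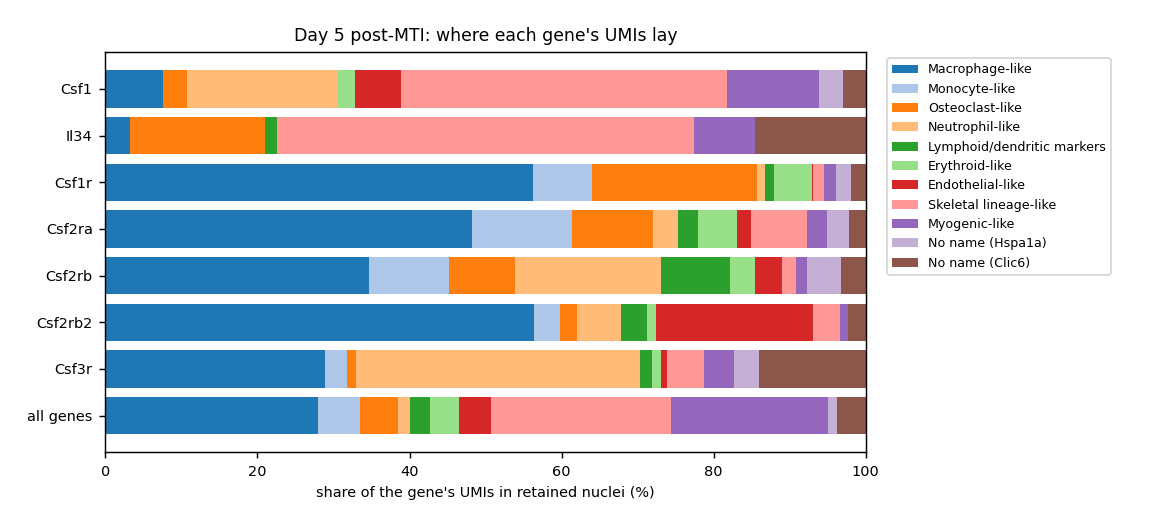
Share of each gene's UMIs (percent of the UMIs in retained nuclei) by population of the day 5 post-MTI library, with the share of the UMIs of all genes as the last bar. Neutrophil-like nuclei gave 1.64% of all UMIs but 37.3% of those of Csf3r. Skeletal lineage-like nuclei gave 23.67% of all UMIs and 54.8% of those of Il34. Of these 34 Il34 UMIs, 24 lay in the pericyte-like cluster at doubled resolutions.

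Set against all other retained nuclei, 5 of the 7 genes were at least 2-fold higher in the neutrophil-like nuclei (Csf3r 35.8-fold, Csf1 14.9-fold, Csf2rb 14.3-fold, Csf2rb2 3.67-fold and Csf2ra 2.06-fold), where 16.4% of 15213 genes passed the same limit. In macrophage-like nuclei 3 of 7 passed it (Csf2rb2 3.33-fold, Csf1r 3.31-fold and Csf2ra 2.40-fold), against 10.3% of all genes. In osteoclast-like nuclei 3 of 7 passed it (Csf1r 5.23-fold, Il34 4.09-fold and Csf2ra 2.26-fold), against 11.7%. In skeletal lineage-like nuclei the 2 ligands passed it (Il34 3.92-fold and Csf1 2.41-fold), against 15.6%. All 5 receptor genes were at least 2-fold lower there, as were 3980 of all 15213 genes, and the median ratio over all genes was 0.880. The fold of Il34 did not hold under other groupings of the nuclei, since the skeletal levels of 11.4 CPM at doubled resolutions and 13.4 CPM with nuclei assigned singly were under the 14.3 CPM of all retained nuclei. In endothelial-like nuclei 1 passed it (Csf2rb2 5.99-fold), against 13.5%. Without replicates these are folds, not tests, and the interval of Csf2ra in neutrophil-like nuclei (0.931 to 3.97) held 1.

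The other ligands and receptors of the family were scarce in the day 5 post-MTI nuclei. No UMI of Csf2 (GM-CSF), Csf3 (G-CSF) or Il3 was counted in the 4337337 retained UMIs, which allows up to 0.692 CPM, and Il5 and Il5ra had 2 and 4 UMIs. Il3ra had 50 UMIs, with 13.2 CPM in macrophage-like and 15.6 in skeletal lineage-like nuclei. It was at least 2-fold higher in neutrophil-like nuclei than in the others, as were 2495 of all 15213 genes. Of the alternative IL-34 receptors, Ptprz1 had 65 UMIs and was 34.1 CPM (23.7 to 47.4) in skeletal lineage-like and 1.65 in macrophage-like nuclei. Sdc1, the proteoglycan syndecan-1, had 36 UMIs and was 36.8 CPM (15.9 to 72.6) in osteoclast-like and 12.7 in skeletal lineage-like nuclei. It was at least 2-fold higher in osteoclast-like and in endothelial-like nuclei than in the others, as were 1781 and 2052 of all genes.

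Genes on the receptor signalling list were high in the macrophage-like and neutrophil-like nuclei. The list is not limited to genes that carry the signal, since it also holds the phosphatase gene Inpp5d and the ubiquitin ligase gene Cblb. Of 16 listed genes, 10 were at least 2-fold higher in macrophage-like nuclei than in the others and 0 at least 2-fold lower (median ratio 2.41, against 0.805 over all genes tested). Of all 15213 genes tested, 1560 were higher and 5091 lower there. In neutrophil-like nuclei 9 were higher and 2 lower (2.17, against 0.332), beside 2495 and 8449 of all genes. In osteoclast-like nuclei 2 were higher, Cblb and Pik3r1, and 3 lower (1.11, against 0.694), beside 1781 and 6452 of all genes. The share higher there was near the 11.7% of all genes. In skeletal lineage-like nuclei 0 were higher and 9 lower (0.305, against 0.880), beside 2379 and 3980 of all genes. The Src family kinase gene Lyn was 2833 CPM (2455 to 3253) in neutrophil-like, 1241 in macrophage-like and 176 in skeletal lineage-like nuclei. Gab2, an adaptor, was 2269 CPM in neutrophil-like and 2096 in macrophage-like nuclei, and Inpp5d, the phosphatase SHIP1, was 1170 and 1152 CPM. Cblb, a ubiquitin ligase, was 1091 CPM (956 to 1239) in osteoclast-like, 532 in macrophage-like and 70.5 in neutrophil-like nuclei.

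The day 1 post-fracture library gave little depth for these genes, and most of their levels in nuclei were not separable from, or were below, those of near-empty barcodes. The 43464 barcodes with fewer than 200 genes held 6848386 UMIs and served as a measure of free RNA. Whether nuclei with little RNA were among them was not tested. These barcodes held 460 Csf1, 132 Il34, 276 Csf1r, 418 Csf2ra, 240 Csf2rb, 97 Csf2rb2 and 1198 Csf3r UMIs. The 2405 retained nuclei held 56, 23, 34, 31, 30, 15 and 110, and comprised 316 immune-like, 209 skeletal lineage-like, 1263 myogenic-like and 617 unnamed nuclei. Clusters of 198, 171 and 119 of the myogenic-like nuclei held 1, 0 and 0 myogenic markers at least 1.5-fold above the rest. In those of 198 and 119, the summed myogenic markers were 0.898 and 0.973 times the level of the other nuclei. The day 1 myogenic-like levels thus include nuclei that these markers do not set apart.

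Csf1 in the day 1 skeletal lineage-like nuclei had 11 UMIs, 127 CPM (63.3 to 227), against 67.2 in the barcodes under 200 genes, a ratio of 1.89 (0.936 to 3.41). With the mitochondrial limit of the other library, 5% in place of 0.5%, it had 29 UMIs in 394 nuclei, 152 CPM, a ratio of 2.27 (1.501 to 3.30). The ratio was 3.31 (1.42 to 6.58) at doubled resolutions and 3.29 (1.32 to 6.84) with the 7 genes and their pathway kept in the clustering, so whether its interval held 1 depended on how the nuclei were grouped. Csf1r in the immune-like nuclei had 8 UMIs, 73.0 CPM (31.5 to 144), against 40.3, a ratio of 1.81 (0.774 to 3.62), which was not separable from free RNA at this depth. At doubled resolutions and with the genes kept in the clustering that ratio was 0.901 and 1.14. Csf3r in the immune-like nuclei had 17 UMIs, 155 CPM, against 175, a ratio of 0.887 (0.515 to 1.43). With nuclei assigned singly from their marker counts, the Csf1r ratio was 0.613 (2 UMIs in 108 nuclei) and no Csf1 UMI was counted in the 45 skeletal lineage-like nuclei. Csf3r was 71.4 CPM in the myogenic-like nuclei, 0.408 times (0.298 to 0.546) the free RNA level. Il34 was 37.4 CPM in the unnamed nuclei with 13 UMIs, 1.94 times (1.01 to 3.44) the 19.3 CPM of the free RNA.

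**Figure D5:**
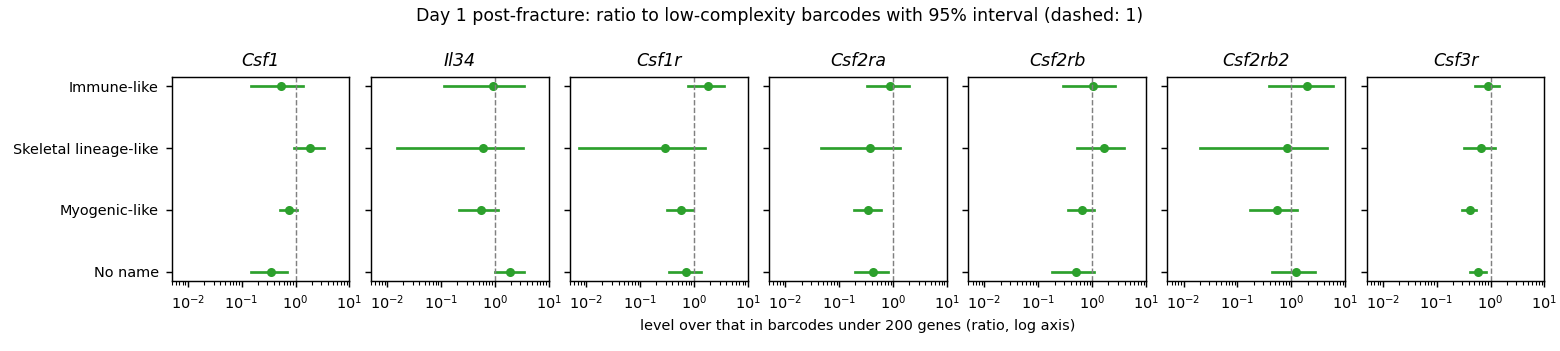
Ratio of the level of each gene in 4 populations of day 1 post-fracture nuclei to its level in barcodes with fewer than 200 genes (log axis, dashed line at 1), with 95% intervals. Csf1 in skeletal lineage-like nuclei (1.89) and Csf1r in immune-like nuclei (1.81) had intervals that held 1, and Csf3r in myogenic-like nuclei was at 0.408.

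At day 1, Csf3r was higher in barcodes with fewer genes. The part of free RNA and of nuclei with little RNA in this was not tested. By number of genes detected, Csf3r was 188 CPM (171 to 206) in barcodes with up to 99 genes, 168 with 100 to 199, 126 with 200 to 499 and 79.3 (55.2 to 110) with 500 or more. The intervals of the lowest and highest bins overlapped for the other 6 genes, which does not show that their levels were equal. Csf1 was 67.8 and 56.6 CPM, Csf1r 33.7 and 36.2, and Csf2rb 33.7 and 22.7. For Csf2ra (62.2 and 31.7 CPM) the overlap was narrow (52.6 to 73.2 against 17.3 to 53.2). Csf3r was thus not alone: all retained nuclei pooled held Csf2ra at 0.4225 times (0.2834 to 0.6089) its free RNA level. For Csf3r this was 0.523 (0.4263 to 0.6363), and for Csf1 0.6935 (0.5158 to 0.9166). The intervals of Il34, Csf1r, Csf2rb and Csf2rb2 held 1. Neither the bins nor the pooled nuclei were compared over all genes. Whether Csf3r, Csf2ra or Csf1 differed here from most other genes was therefore not tested.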

How the data were processed

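The authors deposited unnormalized counts of UMIs, by gene and barcode, for 2 libraries, made from sorted nuclei with the 10x 3′ kit and mapped with Cell Ranger to the mm10 mouse genome with intronic and exonic reads. The extract protocol names a human reference, but all 32285 gene identifiers are mouse ones. From these counts, nuclei with 200 to 5000 genes were retained, with limits of 5% mitochondrial and 2% ribosomal UMIs at day 5 post-MTI and 0.5% and 2.5% at day 1, as in the study's methods. Total UMIs were 5899407 in 1446 barcodes at day 5 post-MTI and 9389014 in 48987 at day 1. Each library was clustered on its own with Seurat 5.3.0 in R 4.3.3, with 2000 variable genes and 30 (20 for immune and 15 for skeletal nuclei) principal components at resolutions of 1 (1.5 and 0.5) at day 5 post-MTI, and 20 components at a resolution of 1.7 at day 1. The 7 genes and 38 pathway genes were left out. Clusters were named "-like" from marker lists where at least 3 markers were at least 1.5-fold above the rest. Clusters without another name were called myogenic-like by a different rule, whatever their number of markers. Their share of myogenic marker UMIs had to be above that of all barcodes of the library. These naming limits were revised after the clusters were seen and before the population levels of the 7 genes were. The rebuilt names may differ from the study's.

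The CPM used here was computed from the counts, with exact Poisson intervals for levels, exact binomial (Clopper-Pearson) intervals for shares and exact conditional binomial intervals for ratios, in scipy 1.17.1. Where no UMI was counted, the limit is that of 3 counts. There is 1 library per condition, nuclei are not replicates, and no p-value was computed. Genes with at least 10 UMIs in retained nuclei were compared by fold. Nuclei were thinned to 500 UMIs, and no nucleus was left out by that. The doublet caller Scrublet (scanpy 1.11.5) marked 3 of 1127 nuclei (0.266%) and 13 of 2405 (0.541%), and marked nuclei were kept. At day 5 post-MTI this share is under 0.5%, so the caller cannot be relied on there.

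The genes named in the text are the 7 genes, up to 4 genes of each pathway list with the most UMIs, all genes of the list of other ligands and receptors, and, for each of the 7, the 3 genes most alike across populations. The 7 genes and all lists were chosen with earlier results of these data known. The genes leading clusters, the doubled-resolution clusters and the sequence motif were singled out after their values were seen. Alternatives were another minimum of genes, other resolutions, the left-out genes kept, nuclei assigned by their own markers, another mitochondrial limit, barcodes under 100 genes as free RNA and, chosen after seeing the data, leaving out the top nucleus or marked doublets. Interval code was tested on simulated data.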

Additional observations from a re-analysis of the deposited data

Results flagged for a closer look

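The 319 barcodes that the filters removed from the day 5 post-MTI library (1562070 UMIs) entered no comparison above, and each of the 7 genes was counted in them above the 1.92 CPM that a count of 0 allows. The levels there were 33.3 CPM for Csf1 (52 UMIs), 14.1 for Il34 (22), 74.9 for Csf1r (117), 54.4 for Csf2ra (85), 31.4 for Csf2rb (49), 7.68 for Csf2rb2 (12) and 90.9 for Csf3r (142). In the 271 barcodes removed by the mitochondrial or ribosomal limit, Csf1r was 106 CPM and Csf3r 115. In the 21 removed for more than 5000 genes, Csf1r was 31.8 CPM, Csf3r 58.5 and Csf1 45.2. The 27 with fewer than 200 genes held no UMI of any of the 7 genes in 36734 UMIs.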

How the results depend on the processing

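Of 92 alternative values of 14 results, 79 lay within the counting interval of the reported value and 13 outside it. These counts do not measure how stable the results are. Values with marked doublets left out are among them, and with 3 of 1127 day 5 post-MTI nuclei marked they could hardly move. Intervals of low counts are also wide: Il34 in osteoclast-like nuclei fell from 50.6 to 26.2 CPM and stayed within its interval. No paired analysis was possible because each condition holds 1 library. Csf1r in macrophage-like nuclei moved from 268 to 317 CPM with doubled resolutions and to 323 with a mitochondrial limit of 0.5%. Il34 in skeletal lineage-like nuclei moved from 33.1 CPM to 11.4 (doubled resolutions, which moved 63 nuclei to the pericyte-like cluster), 13.4 (nuclei assigned singly from their marker counts) and 18.4 (mitochondrial limit of 0.5%). In neutrophil-like nuclei, a minimum of 500 genes and assignment from single-nucleus marker counts moved Csf3r from 4144 CPM to 3108 and 2105, and Csf2rb from 592 to 377 and 349. Assignment from single-nucleus marker counts also moved Csf1 in neutrophil-like nuclei to 188 CPM, the day 1 ratio of Csf1 in skeletal lineage-like nuclei from 1.89 to 0, with 45 nuclei left, and that of Csf1r in immune-like nuclei from 1.81 to 0.613. The Csf1 ratio was 3.31 (1.42 to 6.58) at doubled resolutions and 3.29 (1.32 to 6.84) with the genes kept in the clustering, where its interval no longer held 1. A mitochondrial limit of 0.5% moved Csf2rb2 in endothelial-like nuclei to 56.5 CPM. Other than by fewer or other nuclei, the cause was not tested. The limits are 1 library per condition, clusters named here from markers, shallow nuclei (median 757 UMIs in neutrophil-like and 409 at day 1), and free RNA. The part of free RNA at day 5 post-MTI was not tested. Low levels outside the leading populations may therefore not be readings of expression.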

Other observations

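Of the 10 genes on the list of myeloid transcription factors, 8 had enough UMIs to compare. In neutrophil-like nuclei Spi1 and Cebpb were at least 2-fold above the other nuclei and 5 at least 2-fold lower, in osteoclast-like nuclei Spi1 and Mitf higher and 5 lower, and in skeletal lineage-like and endothelial-like nuclei 0 higher and 7 lower. Of all 15213 genes compared, 2495 were higher and 8449 lower in neutrophil-like, 1781 and 6452 in osteoclast-like, 2379 and 3980 in skeletal lineage-like, and 2052 and 6024 in endothelial-like nuclei. Spi1, which encodes PU.1, was 366 CPM (239 to 537) in neutrophil-like, 354 (280 to 443) in osteoclast-like, 262 (234 to 292) in macrophage-like and 11.7 in skeletal lineage-like nuclei. Mitf, known for its part in osteoclast differentiation, was 1856 CPM in macrophage-like and 1666 (1499 to 1847) in osteoclast-like nuclei, against 207 in skeletal lineage-like nuclei. Maf was 603 CPM in macrophage-like nuclei, and no Maf UMI was counted in the 33 osteoclast-like nuclei, which allows up to 13.8 CPM. Runx1 was not limited to the myeloid nuclei, with 2150 CPM in myogenic-like, 1567 in skeletal lineage-like, 1418 in osteoclast-like and 958 in macrophage-like nuclei.

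Among the feedback inhibitors of cytokine receptors, Socs2 had 203 UMIs and Socs3 85 in all retained nuclei, while Cish and Socs1 were scarce. Socs3, which restrains G-CSF receptor signalling, was 84.6 CPM (31.0 to 184) in neutrophil-like nuclei with 6 UMIs, 25.6 in macrophage-like and 1.11 in myogenic-like nuclei. Socs2 was 133 CPM (84.9 to 197) in endothelial-like, 100.2 in myogenic-like and 65.3 in skeletal lineage-like nuclei, and 7.43 in macrophage-like nuclei. Cish and Socs1 had 11 and 9 UMIs in all retained nuclei.

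Across the 8 named populations, the genes whose log2(CPM + 10) followed each of the 7 most closely were, of 6867 genes compared, Ddx6 (r = 0.986), Stat4 (0.985) and Taldo1 for Csf3r; Brpf1 (0.981), 5031439G07Rik and Fermt3 for Csf1r; and Cyth4 (0.976), Spi1 (0.973) and Dock8 for Csf2ra. They were D1Ertd622e (0.960), Hcls1 and Fxyd5 for Csf2rb, and Cr1l (0.915), Mgat4a and Dcaf13 for Csf2rb2. For the ligands they were Igf1r (0.954), Mier3 and Tmem183a for Csf1, and Clasrp (0.957), Edil3 and Yars for Il34. The populations share a library and differ in depth from 757 to 6686 UMIs per nucleus, and with 8 points and so many genes such values describe the ranking only.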
